A study of Mus musculus with 6 samples.

Results

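The S100 proteins are small calcium-binding proteins with paired EF-hand motifs that act inside cells as calcium-dependent partners of annexins, cytoskeletal proteins and kinases, and outside cells, once released, as ligands of innate immune receptors. In the nervous system S100b is a marker of astrocytes and related glia, S100a8 and S100a9 form calprotectin in neutrophils and monocytes, and S100a4, S100a6, S100a10 and S100a11 are abundant in epithelial, stromal and activated cells. The 10 genes examined here, S100a1, S100a4, S100a6, S100a8, S100a9, S100a10, S100a11, S100a13, S100a16 and S100b, were taken by symbol from the 23420 genes of the count table, and each of them was found there.

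Retinal RNA was sequenced in 6 libraries, 2 for each of 3 groups. The controls were untreated mice, the light group was examined 4 days after 1 h of light at 10000 lux, and the third group received the same light with minocycline, a tetracycline antibiotic with anti-inflammatory activity, at 45 mg/kg intraperitoneally each day for 4 days. All mice are labelled as strain CD1, whereas the methods of the study name albino BALB/cJ mice, adults of both sexes, and a higher light intensity. The labels describe the controls as having no treatment, and name no vehicle injection in either group without minocycline. In the methods, minocycline began before the light exposure. Both minocycline columns of the table carry one header, so these libraries are called minocycline A and minocycline B. The methods call the samples biological replicates, and nothing states how many retinas or mice entered a library.

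Total counts ranged from 15205930 in control 1 to 22856922 in minocycline A. Values are given as raw counts or as CPM, counts scaled to a common library size with TMM over the 6 libraries. Rod transcripts were abundant in every library, with the 8 rod markers summing to 38715 to 93336 CPM, as is usual for retina. Control 1 held 77778 counts of the female transcript Xist and the other libraries held 25 to 188, so that one control differed in sex from the rest. The 4 Y-linked markers held 11 counts in control 1, 12858 in control 2 and 6532 to 9297 in the other 4 libraries. Control 2 thus also stood apart from the light-exposed libraries in these transcripts, for a reason that was not tested. Light-exposed replicate 2 stood further from the controls than replicate 1, and results are therefore also given without single libraries. In whole-retina RNA, more cells of a type and more RNA per cell cannot be told apart.

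The family is clustered in the genome. On chromosome 3 of GRCm38, 7 of the members lie within 184.7 kb, from S100a1 (90511034 to 90514392) to S100a9 (90692632 to 90695721), and S100a11 and S100a10 lie within 44.2 kb further along (93520488 to 93564643). S100b is on chromosome 10 (76253853 to 76261159). S100a1 and S100a13 are transcribed away from each other, and in GENCODE the gap between the genes is 42 bases. This shared stretch is shown because both genes start beside it, here on the strand of S100a13 at chr3:90514393-90514434.
S100a1-S100a13 gap: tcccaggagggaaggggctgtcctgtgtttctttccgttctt

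Light exposure raised most of the family. Of the 10 members, 8 had enough counts to be tested between light-exposed and control retinas, and 7 of these were higher by the quasi-likelihood test of edgeR, at a Benjamini-Hochberg adjusted p under 0.05. Of all 14349 tested genes, 7.52% were higher by the same criterion. None of the members was lower, against 3.8% of all genes. The median log2 fold change of the 8 members was 1.49, beside 0.00 over all tested genes. S100a6 and S100a11 also passed the log2 fold change of 2 that the methods of the study set as a cutoff, which 2.89% of all genes passed upward and 0.0279% downward. Both light-exposed libraries lay above both controls for all 8 tested members, beside 30.1% of all tested genes, and 30.8% had both below. Both light-exposed libraries also lay above the other 4 libraries together for 6 of the 8, not S100a11 and S100b, beside 16.2% of 13977 genes tested in all 3 comparisons. DESeq2 called the same 7 members, beside 8.01% of all genes higher and 5.34% lower. The same 7 passed with scaling by total library size, beside 13.5% higher and 0.927% lower. With all 6 libraries in one fit 6 passed, beside 5.57% higher and 2.39% lower.

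**Figure D1:**
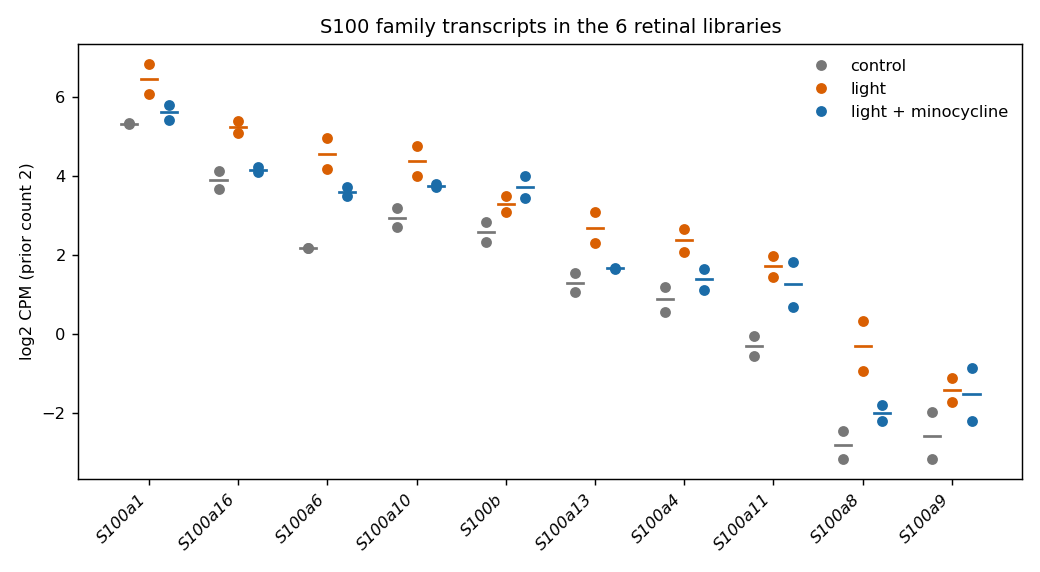
Level of each S100 member in the 6 libraries as log2 CPM with a prior count of 2, with points for libraries and short lines for the mean of each group. Light-exposed libraries lie above the other 4 libraries for S100a1, S100a4, S100a6, S100a8, S100a10, S100a13 and S100a16. S100b has its highest group mean with minocycline, although minocycline A lies below light-exposed replicate 2.

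S100a6, or calcyclin, is a partner of annexins and of the calcyclin-binding protein and is found in dividing and reactive cells. It was at 4.42 and 4.43 CPM in the controls, at 18.0 and 30.9 CPM in light-exposed replicates 1 and 2, and at 11.2 and 13.1 CPM in minocycline A and B. The 3 groups did not overlap, and the minocycline libraries lay between the others. After light it rose 5.56-fold, a log2 fold change of 2.48 (standard error, SE, 0.29), with an adjusted p of 0.0047 in edgeR. It had the largest fitted log2 fold change of the tested members. Without light-exposed replicate 2 the log2 fold change was 2.03 and still passed, with an adjusted p of 1.4e-05 in edgeR.

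S100a10, also called p11, has lost calcium binding and forms a tetramer with annexin A2 that binds tissue plasminogen activator at the cell surface. It was at 8.99 and 6.40 CPM in the controls, at 15.9 and 27.2 CPM after light, and at 13.9 and 13 CPM with minocycline. As for S100a6, the groups did not overlap. It rose after light by 1.496 on the log2 scale (SE 0.30), with an adjusted p of 0.0181 in edgeR.

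S100a11, a partner of annexin A1 in membrane repair and in the cornified layers of epithelia, had lower counts. The controls held 12 and 8 counts, the light-exposed replicates 45 and 81, and minocycline A and B 34 and 65. The controls lay below the other 4 libraries, while the minocycline libraries spanned most of the light-exposed range. After light S100a11 rose 4.57-fold, a log2 fold change of 2.19 (SE 0.45), with an adjusted p of 0.0184 in edgeR. GENCODE lists a processed copy, S100a11-ps, that has no row in the count table, and reads shared with it could be placed in either gene.

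The stretch upstream of S100a11 is shown because it is the one member window with a repeated motif match. It was read from RefSeq on GRCm38.p6, chr3:93520246-93520487 on the plus strand, with matches to the AP-1 motif TGANTCA in capitals.
S100a11 upstream: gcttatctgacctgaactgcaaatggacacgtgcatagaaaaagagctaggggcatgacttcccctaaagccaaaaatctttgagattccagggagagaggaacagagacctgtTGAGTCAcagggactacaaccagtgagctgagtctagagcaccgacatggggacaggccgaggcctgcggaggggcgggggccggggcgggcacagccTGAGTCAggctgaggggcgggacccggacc
RefSeq windows of 250 bases before and 50 after the start site were found for 9 of the members, 10 windows in all. The motif was searched on both strands, and as it is its own reverse complement up to the free base, each match was counted once. It matched in 2 of the 10 windows, those of S100a11 and of an alternative start of S100a16, beside 7.81% of 32817 windows of the same length. The STAT motif TTCNNNGAA and an NF-kB consensus matched in 0 of the 10, beside 8.29% and 0.411% of all windows. These letters do not show binding, and their absence from a window says nothing about the factor.

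S100a4, known as a marker of fibroblasts and motile cells that binds non-muscle myosin, held 19 and 31 counts in the controls, 71 and 131 after light, and 69 and 39 with minocycline. It rose by a log2 fold change of 1.56 (SE 0.40), with an adjusted p of 0.0331 in edgeR. When all 6 libraries entered one fit, its adjusted p was 0.0507 in edgeR, just past the threshold. The minocycline libraries overlapped with neither light-exposed replicate but did overlap with the controls. A predicted gene, Gm42674, overlaps S100a4 in GENCODE and has no row in the table.

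S100a1, known from muscle and neurons as a regulator of calcium release, was the most abundant member. It was at 40.0 and 40.2 CPM in the controls, at 67.9 and 115 CPM after light, and at 42.9 and 56.0 CPM with minocycline. It rose after light by 1.20 on the log2 scale (SE 0.24), with an adjusted p of 0.0221 in edgeR. The controls were nearly identical, and the light-exposed replicates differed by 1.69-fold. S100a1 provided 40.7% to 54.8% of the summed counts of the 10 members in a library.

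S100a13, which takes part in the release of fibroblast growth factor 1, held 39 and 28 counts in the controls, 83 and 176 after light, and 69 and 58 with minocycline. It rose by a log2 fold change of 1.48 (SE 0.38), with an adjusted p of 0.0339 in edgeR. For every 100 counts of its neighbour S100a1 there were 6.95 and 4.90 counts of S100a13 in the controls, 7.12 and 7.26 after light, and 7.03 and 5.48 with minocycline. Both light-exposed libraries were slightly above the other 4, and the minocycline libraries overlapped with the controls. With 39 and 69 counts of S100a13 in control 1 and minocycline A, differences this small are within counting error. S100a16, a broadly expressed member, was at 17.3 and 12.7 CPM in the controls, at 34.0 and 42.2 CPM after light, and at 18.7 and 16.9 CPM with minocycline. It rose after light by 1.35 on the log2 scale (SE 0.21), with an adjusted p of 0.00875 in edgeR.

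S100b, the glial member and a ligand of the receptor Ager (RAGE), had the smallest change after light. Controls 1 and 2 held 99 and 70 counts of it, 143 and 237 after light, and 244 and 301 with minocycline. On the CPM scale this was 7.07 and 4.92, 8.33 and 11.2, and 10.7 and 15.9. Both controls lay below the other 4 libraries, and minocycline B was the highest. Light against control gave 0.72 on the log2 scale (SE 0.30), and the adjusted p of 0.143 in edgeR did not pass. S100b overlaps Dip2a on the opposite strand, and the use of the strand in counting is not stated. Dip2a held 705 and 890 counts in the controls, 1164 and 1492 after light, and 1072 and 824 with minocycline. The part of Dip2a reads in the S100b counts was not tested.

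The calprotectin genes were near the limit of detection. S100a8 held 1 and 0 counts in the controls, 7 and 24 after light, and 4 and 2 with minocycline. With the controls set to a floor of 3 counts in a library, the mean level of S100a8 after light was 3.61-fold this floor. The single light-exposed libraries were at 1.90-fold and 5.31-fold the floor, with no allowance for counting error in these libraries. S100a9 held 2 and 0 counts in the controls, 6 and 4 after light, and 10 and 2 with minocycline, so that its light-exposed libraries were within the range of the minocycline libraries. Its mean level after light was 1.26-fold the floor, and light-exposed replicate 2 was below the floor, at 0.885. Both genes stayed below the filter on low counts in all 3 comparisons. Without any filter S100a8 passed after light and S100a9 did not, beside 8.01% of all genes higher. The floor concerns counting in the controls alone, and copies made by PCR are not separate molecules.

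Most neutrophil transcripts were scarce as well. Of the 9 neutrophil markers in the table, 2 (Camp and Elane) had 0 counts in every library, and Ngp, Mpo, Retnlg and Cxcr2 had 2 or fewer in each. The list summed to 0.914 to 1.07 CPM in the controls, 4.14 and 16.7 CPM after light, and 2.10 and 0.529 CPM in minocycline A and B. Most of it was Csf3r, a receptor that microglia and monocytes also express, which rose after light by a log2 fold change of 3.41 with an adjusted p of 0.0455 in edgeR. Mmp8 held 8 and 39 counts after light and 0 in the other 4 libraries.

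The calls depended on single libraries. Without light-exposed replicate 2, 3 members passed after light (S100a1, S100a6 and S100a16), beside 3.05% of all genes higher, and the median log2 fold change of the members was 1.12. Without light-exposed replicate 1 the median was 1.82 over 9 tested members. S100a8 was among these 9 only through its 24 counts in light-exposed replicate 2. Without control 1 or control 2 no member passed in edgeR, although 8 and 7 of 9 tested members had an unadjusted p under 0.05, beside 28.5% and 22.3% of all genes in either direction. In these fits 4 and 57 of all genes passed, and the fitted log2 fold changes of S100a6 were 2.46 and 2.47. With all 4 libraries 8 of 8 tested members had an unadjusted p under 0.05, beside 16.5% of all genes higher and 12.4% lower.

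**Figure D2:**
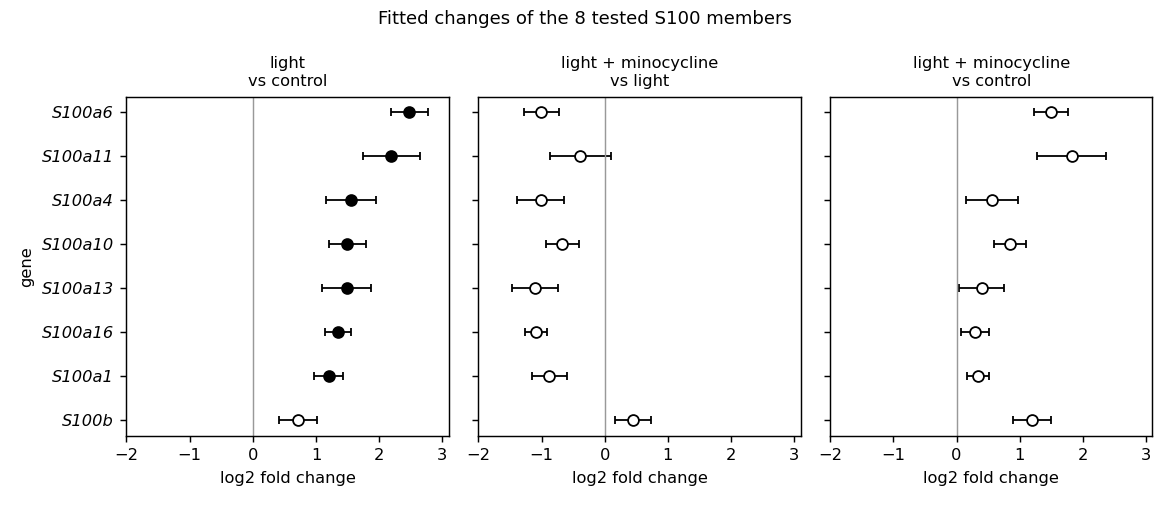
Log2 fold change of the 8 tested members in the 3 comparisons, with bars for the standard error and filled points for an adjusted p under 0.05 in edgeR. All 8 are above 0 after light, 7 of them filled, and no member is filled in the comparisons with minocycline.

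Minocycline was compared with light alone in the same way. None of the 8 tested members passed in edgeR in either direction (0 higher and 0 lower), beside 0.0136% of 14750 genes higher and 0.0407% lower, and 6 members had an unadjusted p under 0.05, all lower, beside 12.1% of all genes lower and 9.04% higher. For 7 members the fitted log2 fold change was negative, and the median over the 8 was -0.94, beside 0.01 over all tested genes. Both minocycline libraries lay below both light-exposed libraries for 6 members (S100a1, S100a4, S100a6, S100a10, S100a13 and S100a16), as in 28.1% of all tested genes, and 26.8% had both above. The light-exposed libraries enter this comparison and that with control, so the pair of results is not independent.

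S100a16 had the smallest adjusted p with minocycline, 0.0698 in edgeR, at a log2 fold change of -1.09 (SE 0.17). It passed with DESeq2, without a filter, with all 6 libraries in one fit, and without light-exposed replicate 1 or minocycline A, with adjusted p-values from 0.000128 to 0.0498. Without a filter 2.63% of all genes were lower, and without minocycline A 0.309%. The log2 fold changes of S100a13, S100a4, S100a6 and S100a1 were -1.11, -1.01, -1.004 and -0.87, with adjusted p-values of 0.147, 0.182, 0.115 and 0.161 in edgeR. S100a10 and S100a11 were at -0.67 and -0.39. S100b was the one member with a positive value, 0.45 (SE 0.28), with an adjusted p of 0.413 in edgeR, and its groups overlapped.

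DESeq2 without shrunken fold changes called 3 members lower with minocycline (S100a1, S100a6 and S100a16), beside 4.98% of all genes lower and 3.14% higher. With all 6 libraries in one fit S100a16 was lower, beside 2.4% lower and 0.918% higher. Without light-exposed replicate 1, 4 members were lower in edgeR (S100a1, S100a6, S100a10 and S100a16), beside 4.64% of all genes. Without light-exposed replicate 2 none was, beside 0.18% of all genes, and the median log2 fold change of the members was -0.52.

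Against control, the minocycline libraries remained above for part of the family. Both lay above both controls for 6 of the 8 tested members, beside 15.5% of all tested genes, while 24.5% had both below. The share above was 14.9% of the 13977 genes tested in all 3 comparisons. For 4 members (S100a1, S100a6, S100a10 and S100a13) both lay between the controls and the light-exposed libraries, beside 4.14% of those genes. No member passed in edgeR (0 higher and 0 lower), beside 0.162% of 14181 genes higher and 0% lower, and 4 had an unadjusted p under 0.05, beside 5.39% of all genes higher and 1.62% lower. With the log2 cutoff of 2 added, 0.134% of all genes were higher. DESeq2 called S100a6 higher, beside 1.16% of all genes higher and 0.0282% lower. The log2 fold changes were 1.82 for S100a11, 1.49 for S100a6, 1.19 for S100b and 0.85 for S100a10, with adjusted p-values of 0.385, 0.101, 0.27 and 0.392 in edgeR. For S100a4, S100a13, S100a1 and S100a16 they were 0.57, 0.40, 0.34 and 0.29. S100a6 passed without minocycline A or without minocycline B, with log2 fold changes of 1.60 and 1.33, and S100b and S100a11 passed without minocycline A, at 1.45 and 2.31. Of all genes 2.82% were higher without minocycline A and 3.04% without minocycline B.

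The members differed in how far they stood from control, and ratios within a library show this without any scaling between libraries. For every 100 counts of S100a1 there were 11.1 and 11.01 counts of S100a6 in the controls, 26.5 and 26.9 after light, and 26.0 and 23.4 with minocycline. The ratio was more than doubled in all 4 light-exposed libraries compared with the controls, with and without minocycline. For S100b the ratio to S100a1 was 17.7 and 12.2 in the controls, 12.3 and 9.78 after light, and 24.9 and 28.5 with minocycline. The minocycline libraries stood above the other 4 here. With 2 libraries in a group, an exact two-sided permutation test cannot give a p below 0.333, so these ratios are descriptions.

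**Figure D3:**
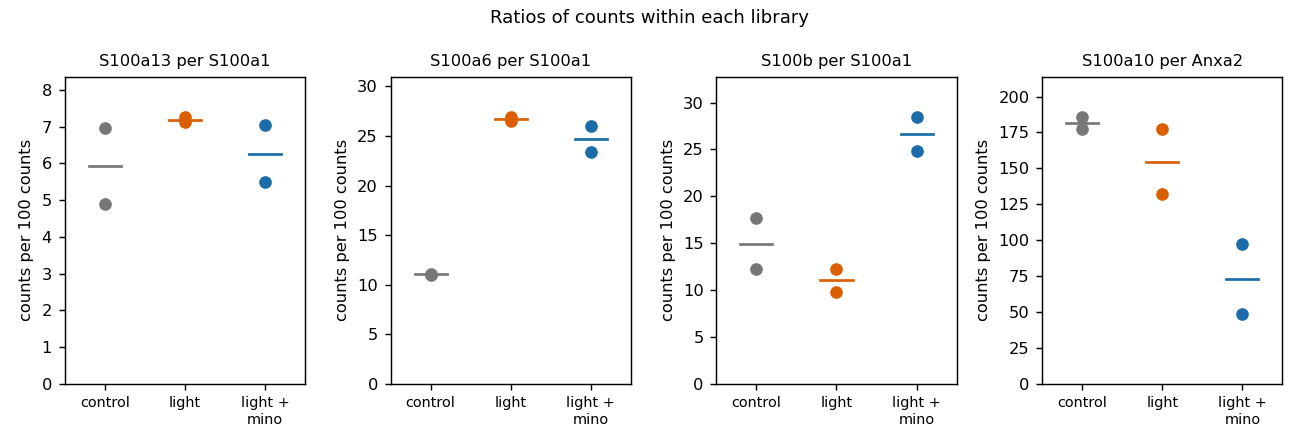
Counts of one gene for every 100 counts of another in the same library, with points for libraries and lines for group means; the vertical axes start at 0. S100a13 per S100a1 is 7.12 and 7.26 after light and 4.90 to 7.03 in the other 4 libraries, a gap within counting error. S100a6 per S100a1 is near 11 in control and 23.4 to 26.9 in the light-exposed groups. S100b per S100a1 is highest with minocycline, and S100a10 per Anxa2 is lowest there.

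Levels of different genes were compared as CPM per kb of the principal GENCODE transcript. In control the order was S100a1 at 59.3, S100a16 at 13.3, S100a10 at 11.2, S100a6 at 6.06, S100b at 4.04, S100a4 at 3.55, S100a13 at 3.32 and S100a11 at 1.39, with S100a9 and S100a8 at 0.138 and 0.0734. The libraries of S100a16 and S100a10 overlapped, as did those of S100b and S100a4, and of S100a4 and S100a13. After light S100a1 led at 135, and S100a16, S100a6 and S100a10 followed at 33.8, 33.4 and 31.4 with overlapping libraries. S100a6 thus reached the level of S100a16 and S100a10 after light, having been below both in control. With minocycline S100a10 was second at 19.6, before S100a6 at 16.6 and S100a16 at 15.8, whose libraries overlapped. S100b followed at 8.96, above S100a4 and S100a13 in both libraries.

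Some partners and receptors of S100 proteins rose after light. Of 18 tested genes on the list, 8 were higher at an adjusted p under 0.05 in edgeR and 0 lower, beside 7.52% and 3.8% of all genes. The median log2 fold change of the list was 0.98, beside 0.00 over all tested genes. Among the annexins, which bind membranes in a calcium-dependent way and pair with S100 proteins, Anxa2, Anxa5, Anxa1 and Anxa6 rose by log2 fold changes of 1.81, 1.57, 1.11 and 0.80. Their adjusted p-values in edgeR were 0.0312, 0.018, 0.0482 and 0.0491. Ahnak, a large scaffold that binds the complex of S100a10 and annexin A2, rose by 1.05, and Plat, the tissue plasminogen activator, by 0.91, with adjusted p-values of 0.0277 and 0.0232 in edgeR. Plaur, the urokinase receptor, rose by 3.44, from 2 and 4 counts to 14 and 81. It passed the filter on low counts only through the light-exposed libraries, so its place among the 8 rests on the group where it was high.

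Of the receptors through which released S100 proteins signal, Tlr4, which binds S100a8, held 5 and 5 counts in the controls, 49 and 127 after light, and 31 and 45 with minocycline. It rose by a log2 fold change of 3.64. Like Plaur, it entered the test after light only through the light-exposed libraries, and it is among the 8 that passed. Ager, the receptor of S100b, held 47 and 76, 96 and 159, and 64 and 63 counts, and its log2 fold change of 0.60 did not pass, with an adjusted p of 0.272 in edgeR. The 10 partners and receptors that did not pass had log2 fold changes from -0.10 for Bsg to 3.53 for Cd36. Among them were Anxa11 at 1.13, the protease subunit Capn1 at 1.08, the myosin Myh9 at 0.44, Cacybp, the calcyclin-binding protein, at -0.04, and Syt1, the most abundant gene of the list, at 0.10.

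With minocycline against light alone, none of the 18 tested partners passed in edgeR (0 higher and 0 lower), in a comparison where 0.0136% of all genes were higher and 0.0407% lower. Their median log2 fold change was -0.08, beside 0.01 over all tested genes. The partner genes did not move alike, with log2 fold changes from -3.77 for Plaur to 0.49 for Anxa2. Anxa2 held 71 and 49 counts in the controls, 154 and 434 after light, and 325 and 508 with minocycline, and S100a10 per 100 counts of Anxa2 was 178 and 186, 177 and 132, and 97.5 and 48.4. Against control, Anxa2 had a log2 fold change of 2.31 with minocycline and an adjusted p of 0.078 in edgeR.

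The nearest patterns were sought among the 13976 other genes tested in all 3 comparisons, by the root mean square difference of centred log2 CPM over the 6 libraries. S100a10 was nearest to Anxa5, Phlda3 and Vim, at 0.081, 0.083 and 0.10. Anxa5 is an annexin that binds phosphatidylserine, and Vim encodes the intermediate filament vimentin of Müller cells. S100a6 was nearest to Mapkapk3, Axl and Plin3, at 0.10, 0.18 and 0.20, where Mapkapk3 is a kinase downstream of p38 and Axl a receptor in the uptake of dying cells. S100a1 was nearest to Ehbp1l1 at 0.069, and S100b to Rarres2, which encodes the chemoattractant chemerin, at 0.093. S100a13 and S100a16 had Chrdl1, an antagonist of bone morphogenetic proteins, among the nearest 3, at 0.104 and 0.106. S100a4 was nearest to Sh2b2 at 0.114, and S100a11 had the most distant neighbour, Dse at 0.138.

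Of the marker lists of cell types in the tissue, those of microglia and macrophages, reactive glia, monocytes, neutrophils, endothelium and Schwann cells were, like most of the family, highest in both light-exposed libraries. Monocyte markers summed to 46 and 70 CPM after light and to 29.7 to 33.1 CPM in the other 4 libraries. Endothelial markers summed to 216 and 274 CPM against 126 to 210 CPM, most of it from Kdr, at 197 and 253 CPM after light. Of 5 tested endothelial markers, Kdr alone was higher after light at an adjusted p under 0.05 in edgeR, and 0 were lower. Cldn5, Cdh5, Pecam1 and Vwf had log2 fold changes of -0.20, 0.14, 0.27 and 1.30. The 10 microglia and macrophage markers summed to 31.6 and 39.6 CPM in the controls, 393 and 1337 CPM after light, and 71.8 and 32.5 CPM in minocycline A and B. After light all 10 had positive log2 fold changes, from 1.73 to 6.82 with a median of 4.16. Of these, 4 passed as higher at an adjusted p under 0.05 in edgeR, beside 7.52% of all genes. The 10 markers of reactive glia summed to 253 and 364, 804 and 1031, and 360 and 288 CPM. After light 7 of them were higher, beside the same 7.52% of all genes. Among them was Gfap, with a log2 fold change of 2.01 and an adjusted p of 0.0154 in edgeR. The 10 Müller cell markers had another order, with sums of 2940 and 2016 CPM in the controls, 3253 and 3699 after light, and 3736 and 2769 with minocycline. Of these markers Vim and Slc1a3 passed after light, and the other 8 did not. The rod markers went the other way, with 93336 and 73105 CPM in the controls, 54721 and 38715 after light, and 79842 and 85458 with minocycline. Of these 8 markers, 1 (Nrl) was lower after light at an adjusted p under 0.05 in edgeR, beside 3.8% of all genes, and 0 were higher. The part of these cell types in the S100 values was not tested.

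**Figure D4:**
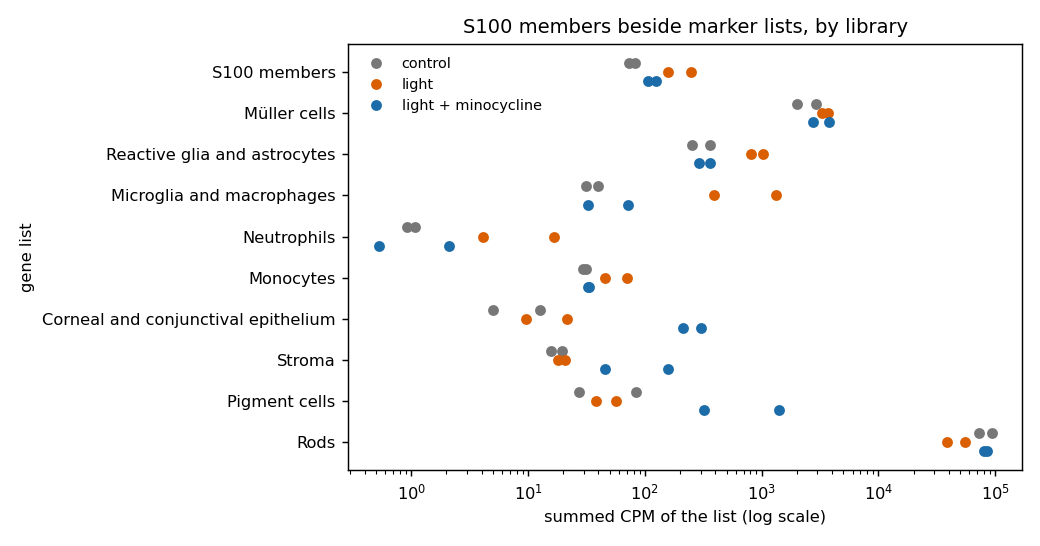
Summed CPM of the S100 members and of 9 marker lists in each library, on a log axis. The S100 members sum to 83.1 and 73.4 CPM in control, 156 and 246 CPM after light, and 105 and 124 CPM with minocycline. The microglia and reactive glia lists are also highest after light, while corneal, stromal and pigment cell lists are highest with minocycline.

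Several marker lists of cells outside the neural retina were highest in the minocycline libraries, and the source of these transcripts was not tested. The 10 markers of corneal and conjunctival epithelium summed to 4.99 to 21.6 CPM in the control and light-exposed libraries and to 214 and 303 CPM in minocycline A and B, stromal markers to 15.8 to 20.9 CPM against 45.7 and 158 CPM, and pigment cell markers to 27.5 to 84.6 CPM against 322 and 1412 CPM. Smooth muscle markers summed to 5.28 to 18.1 CPM in the control and light-exposed libraries and to 66.1 and 326 CPM in minocycline A and B. Pigment epithelium markers were not highest there, with 72.3 and 108 CPM against 81 to 221 CPM in the other 4. Lens markers were highest in light-exposed replicate 1, at 148 CPM against 0.856 to 15.4 CPM in the other 5 libraries. In the corneal list 4 of 9 tested markers were higher than in control, beside 0.162% of all genes, and 2 of 9 higher than after light alone, beside 0.0136%. Of those higher than in control, Dsg1a and Trim29 passed the filter on low counts only through the minocycline libraries. The corneal, stromal, smooth muscle and pigment cell lists were higher in minocycline B than in A. So were 5 members (S100a1, S100a6, S100a11, S100a13 and S100b), while the other 5 (S100a4, S100a8, S100a9, S100a10 and S100a16) were lower there. S100b is expressed by melanocytes and Schwann cells as well as glia. The Schwann cell markers summed to 56.5 and 56.4 CPM in the minocycline libraries, within the 46.2 to 86.1 CPM of the other 4. The part of these lists in the S100 values, with or without minocycline, was not tested.

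The other 8 S100 genes of the table were nearly silent, apart from S100pbp, which encodes a binding protein of S100P and not an S100 protein. S100a2, S100g and S100z had 0 counts in every library, and S100a3, S100a5 and S100a7a held 13 or fewer. S100a14, an epithelial member, held 1 and 1 counts in the controls, 5 and 3 after light, and 24 and 39 with minocycline, the order of the corneal list. Compared with light alone, its log2 fold change with minocycline was 2.85 (SE 0.63). It passed the filter on low counts only through the minocycline libraries, so no adjusted p is given. S100pbp had a log2 fold change of 0.28 after light and an adjusted p of 0.432 in edgeR.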

How the data were processed

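Stranded poly-A libraries of mouse retina were sequenced as single reads. Per the study's methods, the authors aligned them to the mm10 genome (GRCm38) with STAR and assigned reads to genes in RNA Express. The annotation, tool versions and use of the strand in counting are not given in the sources used here. The authors deposited counts per gene for 6 libraries, and 0 value columns were left unused. The data statement calls these normalized, but they were whole numbers with unequal totals and were used as raw counts.

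Pairs of groups were compared with edgeR 4.0.16 in R 4.3.3, using filterByExpr, TMM normalization, the robust quasi-likelihood F test and Benjamini-Hochberg adjustment over all tested genes. Scripts were checked on simulated data. As cultures or animals behind a library are not described, p-values measure only the spread between these samples. A member passed at an adjusted p under 0.05. A prior count of 2 was added for log2 CPM. A group with 3 counts or fewer in each library was set to 3 counts, and the fold over this floor is given.

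All 10 members were named in every comparison. Of the other S100 genes, the partners and the cell type markers, those that passed, the most abundant and those a result turned on were named, the last chosen after their values were seen. The members and lists were chosen with earlier results of these data known. Alternatives were DESeq2 1.42.0, other normalizations, other filters, no robust estimation, a joint fit of the 6 libraries, a block for replicate number, and each library left out. Promoter windows came from RefSeq on GRCm38.p6 and gene coordinates from GENCODE.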

Additional observations from a re-analysis of the deposited data

How the results depend on the processing

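The 7 members higher after light remained 7 with DESeq2, DESeq2 size factors, total library size and without robust estimation, where 6.85% to 13.5% of all genes were higher. With all 6 libraries or at least 10 counts in every library 6 passed, in the latter case because S100a11 was no longer tested, beside 5.57% and 6.77% of all genes. Leaving out single libraries gave 0 to 8 members higher after light, beside 0.0269% to 11.4% of all genes. It gave 0 to 4 members lower with minocycline against light alone, beside 0.033% to 4.64%, and 0 to 3 higher with minocycline against control, beside 0.0203% to 3.04%. In these fits one group has 1 library, which is assumed to vary like the other group. Against light alone, DESeq2 gave 3 members lower, beside 4.98% of all genes, and no filter or all 6 libraries in one fit gave 1, beside 2.63% and 2.4%. Against control, no filter gave 2 members higher, beside 1.01% of all genes, and DESeq2 gave 1, beside 1.16%. Of the values of single members under all alternatives, 1 changed sign: S100a11 with minocycline against light alone, which ranged from -1.12 to 0.12 when single libraries were left out, the latter without minocycline A. With scaling by total library size, all genes had a median of 0.24 on the log2 scale after light, and the members 1.73.

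With the replicate block, 7 members were higher after light, beside 11.6% of all genes higher and 5.97% lower, a larger share than the 7.52% and 3.8% without it. The replicate numbers are not stated to pair the samples, and the deviations of same-numbered libraries had a correlation of -0.0075 across genes. No paired analysis was possible because, in both comparisons with minocycline, its columns carry no replicate number of their own.

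Groups of 2 allow no test for outlying libraries. At these depths, S100a8 and S100a9 were too low for a fold with minocycline.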
